A study of Homo sapiens with 14 samples.

Results

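The kinesin family was examined in RNA-seq of IMR90, a human fibroblast line of lung origin. Members were taken by name, as every protein-coding gene whose symbol is KIF followed by a number and at most 1 letter. This gave 39 genes, of 59860 gene symbols in the old and young tables, 54628 in the knockdown tables and 38716 in the inflachromene tables. They were sorted by main role into 13 mitotic, 13 transport and 13 other members, with earlier results of these data known. KIF2A, which shares its number with the mitotic members KIF2B and KIF2C, was placed among the other members.

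The study followed how these fibroblasts enter senescence, the lasting arrest that ends their growth in culture. The isolates I79 and I10 were each sampled young (proliferating) and old (passaged into replicative senescence). I79 ICM cells were given inflachromene (ICM), a compound known to bind HMGB1 and HMGB2 on chromatin, and were sequenced as 2 libraries. The last groups were WT (wild type) and HMGB2 KD, in which HMGB2 was knocked down with siRNA, with 2 libraries each. Young and old cells had 1 deposited table per isolate although the labels list 2 replicates, and each table is used as 1 value per isolate and state, as it is not given in the sources used here whether it pools both replicates. The labels give no dose or time for ICM, no isolate for the WT and HMGB2 KD libraries and no control siRNA for WT. RNA was poly(A)-selected in all groups.

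Kinesins are motor proteins that burn ATP to walk along microtubules or to take their ends apart. Mitotic kinesins build the spindle, move chromosomes and help split the daughter cells, and their genes are switched on late in the cell cycle. Transport kinesins carry vesicles, organelles and ciliary cargo in dividing and resting cells alike, while others act in cilia, in Hedgehog signalling or on microtubule ends.

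The old and young tables held between 14991385 and 20632959 estimated counts, the WT and HMGB2 KD libraries between 33561766 and 41168932 counts, and the ICM libraries 13290131 and 10971132 reads. HMGB2 itself had levels of 27.1 and 27.3 CPM in the WT libraries and of 3.22 and 3.64 CPM after knockdown, where CPM is the count scaled to library size with edgeR's TMM factors. Of the cell type markers, 7 of 7 fibroblast genes were detected, with summed levels from 12424 to 32801 CPM over all libraries. The summed levels of 3 epithelial markers ranged from 0.161 to 0.752 CPM, of the endothelial markers CDH5 and VWF, with PECAM1 in the WT and HMGB2 KD tables, from 0.365 to 3.29 CPM and of 3 immune markers from 0.0543 to 1.40 CPM. SFTPC, CDH5 and CD3E, which define lung epithelium, endothelium and T cells, were at 0 in every library. The neuronal list ranged from 33.4 to 257 CPM, nearly all of it TUBB3, while RBFOX3 did not pass 0.209 CPM.

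In young cells the family was led by transport and mitotic motors at like levels. Levels of different genes were compared in TPM, a share of all transcripts that corrects for their length. KIF5B, the heavy chain of the ubiquitous conventional kinesin, ranked first with 83.9 TPM in I79 young and 88.7 TPM in I10 young. KIF20A, which brings the chromosomal passenger complex to the central spindle at the end of mitosis, ranked second with 66.2 and 65.9 TPM. KIF1C, a carrier of vesicles and adhesion receptors, came after it with 58.9 TPM in both isolates.

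Part of the KIF1C level came from short transcripts. In I79 young, KIF1C-203, a transcript of 726 bases with no coding sequence defined, received 112 of the gene's 2091 estimated counts and 35.7% of its TPM. KIF22, a chromokinesin that pushes chromosome arms towards the spindle equator, stood at 36.2 and 41.3 TPM. KIF23, the motor subunit of centralspindlin, stood at 35.8 and 40.6 TPM, and these neighbours in the order differed by less than the isolates did. KIF2A, a motor that takes microtubule ends apart, led the other members with 34.3 and 35.4 TPM. It was followed by KIF7, a ciliary regulator of Hedgehog signalling, with 9.45 and 8.24 TPM and by KIF9, a motor of motile cilia, with 5.93 and 7.18 TPM. The levels of KIF9 rested on 33 and 52 estimated counts.

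Of the 13 mitotic members, 11 reached 1 TPM in both young isolates, as did 9 of 13 transport and 6 of 13 other members. KIF2B and KIF12 had no count in any table. The exons of KIF2A share 2446 bases with DIMT1, those of KIF9 870 with KIF9-AS1, those of KIF7 589 with TICRR and those of KIF23 231 with KIF23-AS1, all on the other strand, and without a stated use of strand the reads of such pairs cannot be told apart. KIF4B, a copy of KIF4A, had at most 1 estimated count, and KIF1A, KIF19 and KIF26A were also near 0. Reads of KIF4A could be split with KIF4B, but in the old and young tables hardly were. In ICM, KIF4A was given 0.5 and 1.5 reads and KIF4B 0.5 and 0.5. How the WT and HMGB2 KD tables, with 0 counts for KIF4B, treated shared reads is not given. Summed over members, mitotic kinesins made up 46.1% of the family's TPM in I79 young and 48.3% in I10 young. In the old columns they made up 13.2% and 19.7%. The summed mitotic level was 255 TPM in I79 young and 41.5 TPM in I79 old, and 289 TPM and 75.6 TPM in the I10 columns. Over the same columns the transport sum was 240 TPM, 230 TPM, 250 TPM and 272 TPM.

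**Figure D1:**
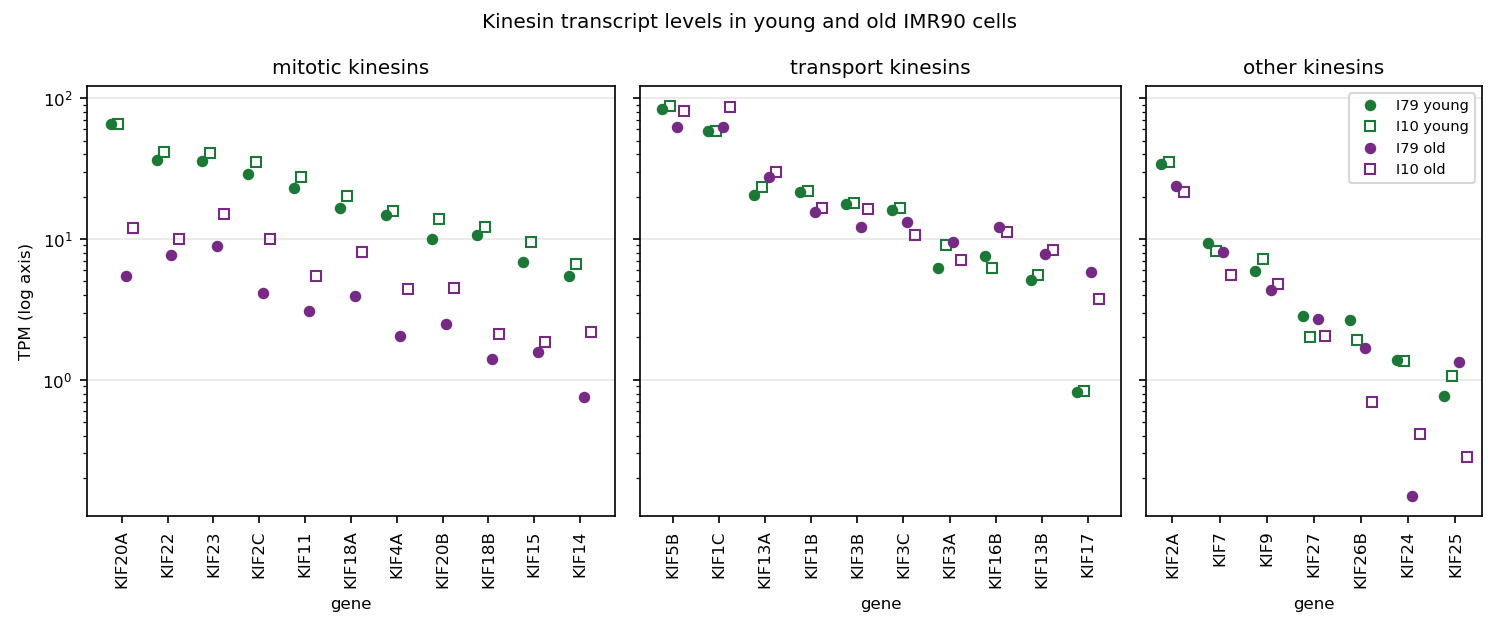
TPM on a log axis for the kinesins that reached 1 TPM in at least 1 of the 4 old and young columns, by role; each point is 1 table (circles I79, squares I10, green young, purple old), and values of 0 are not drawn. Both old points lie below both young points in all 11 mitotic genes drawn, while of 10 transport genes both lie above in 5, both below in 4, and KIF3A is mixed. The share of all genes that lie apart in this way was not counted. With TMM scaling KIF3B and KIF5B were higher in old than in young I10 cells (68.5 against 63.7 CPM, and 320 against 302 CPM).

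Promoter letters, which the naming rule did not use, were then compared between the roles. RefSeq promoter windows (GRCh38.p14) were matched for 33 of the 39 members, all 13 mitotic ones among them, and the 250 bases before each RNA start were searched on both strands. The sequences below are the last 150 of these bases, for 5 mitotic genes that carry the late cell cycle letters, for KIF3B, which fell after HMGB2 knockdown, and for KIF17, which rose in old cells. Capitals mark CCAAT (or ATTGG on the other strand), the letters bound by NF-Y, and TTTGAA (or TTCAAA), known as the cell cycle genes homology region or CHR. In the KIF20A stretch the related letters TTTAAA are left in lower case.
KIF20A (chr5:138178962-138179111, plus strand): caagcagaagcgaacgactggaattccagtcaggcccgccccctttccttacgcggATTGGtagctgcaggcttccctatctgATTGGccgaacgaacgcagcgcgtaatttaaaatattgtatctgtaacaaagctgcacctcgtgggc
KIF23 (chr15:69414199-69414348, plus strand): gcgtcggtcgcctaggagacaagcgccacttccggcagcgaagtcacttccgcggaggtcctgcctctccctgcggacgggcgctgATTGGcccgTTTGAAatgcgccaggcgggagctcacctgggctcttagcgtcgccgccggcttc
KIF11 (chr10:92592980-92593129, plus strand): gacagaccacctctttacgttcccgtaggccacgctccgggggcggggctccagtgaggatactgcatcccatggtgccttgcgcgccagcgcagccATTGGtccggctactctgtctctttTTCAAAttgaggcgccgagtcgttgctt
KIF4A (chrX:70289954-70290103, plus strand): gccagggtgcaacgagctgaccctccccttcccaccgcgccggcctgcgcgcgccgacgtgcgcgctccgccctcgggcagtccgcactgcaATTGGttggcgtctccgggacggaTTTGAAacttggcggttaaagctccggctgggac
KIF18A (chr11:28108157-28108306, minus strand): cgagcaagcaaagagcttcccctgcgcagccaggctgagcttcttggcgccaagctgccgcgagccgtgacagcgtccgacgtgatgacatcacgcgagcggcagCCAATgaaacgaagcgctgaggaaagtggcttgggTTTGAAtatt
KIF3B (chr20:32277501-32277650, plus strand): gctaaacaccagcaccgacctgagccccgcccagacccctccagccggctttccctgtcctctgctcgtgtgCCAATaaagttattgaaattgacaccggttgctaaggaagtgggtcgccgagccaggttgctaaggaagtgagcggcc
KIF17 (chr1:20718008-20718157, minus strand): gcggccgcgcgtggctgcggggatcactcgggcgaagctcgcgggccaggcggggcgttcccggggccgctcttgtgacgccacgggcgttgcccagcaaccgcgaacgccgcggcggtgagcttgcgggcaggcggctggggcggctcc

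CCAAT was found upstream of 10 of 13 mitotic, 4 of 11 transport and 3 of 9 other members, against 32.0% of all 35116 promoter windows. A member counts here if any of its windows matches, while the share is taken per window. By window, CCAAT was found in 10 of 14 mitotic, 5 of 16 transport and 4 of 12 other windows. TTTGAA was found upstream of 5 of 13 mitotic members, of KIF5B alone among 11 transport members and of 0 of 9 other members, against 13.3% of all windows. In KIF11, KIF15, KIF18A, KIF4A and KIF23 TTTGAA began at positions -28, -35, -10, -34 and -55 from the RNA start. Both sets of letters stood together in 4 mitotic members and in KIF5B, against 4.69% of all windows, and in KIF5B the TTTGAA began at -140. TTTAAA occurred upstream of 3 mitotic members, KIF14, KIF20A and KIF23, and in 11.3% of all windows. KIF2B and KIF2C held none of these 3 sets of letters. The letters GCGGGAA, an E2F core, were upstream of no mitotic member and of 2 transport members, KIF17 among them, against 5.52% of windows. A match is a description of the letters and says nothing about binding in these cells.

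**Figure D2:**
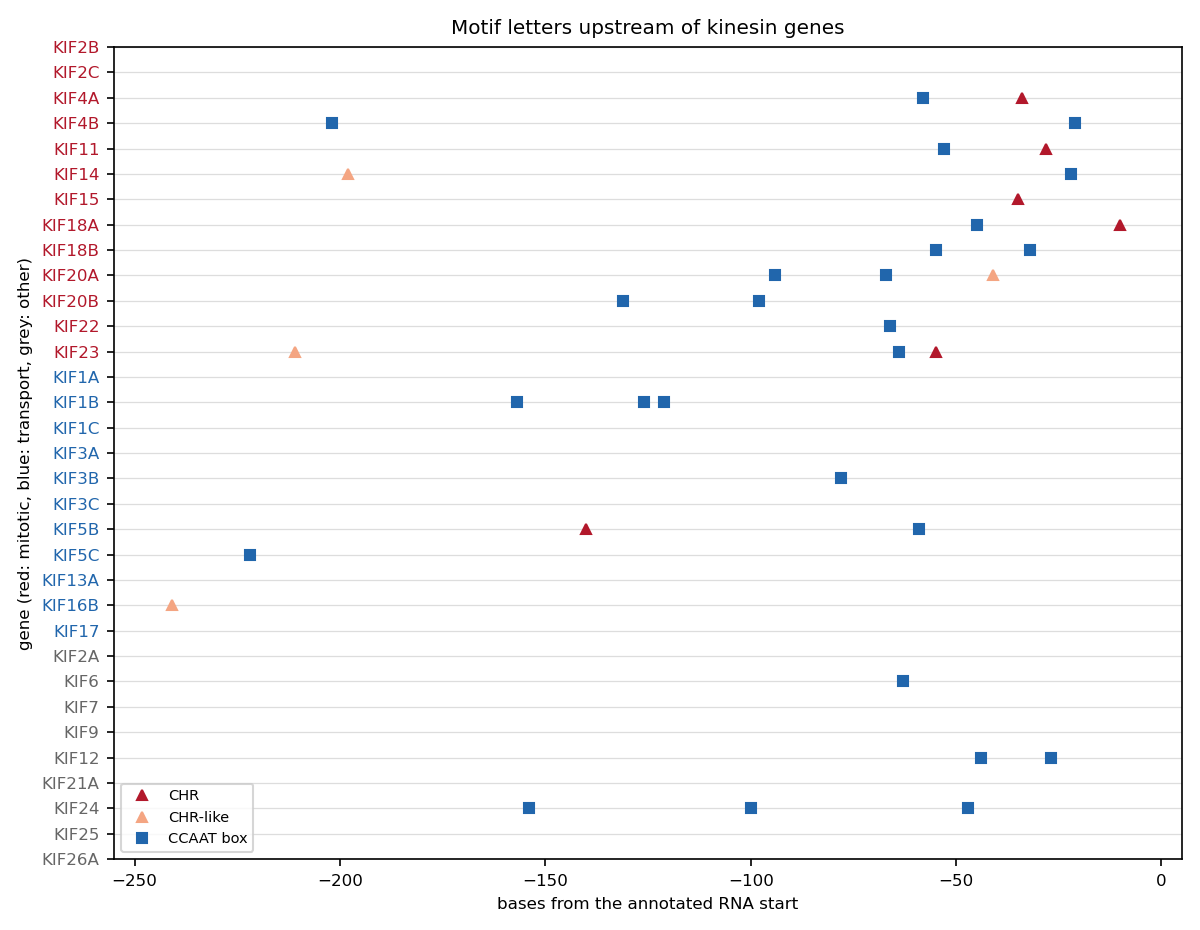
Positions of CCAAT (blue squares), TTTGAA (dark red triangles) and TTTAAA (light triangles) in the 250 bases before the RNA start of the 33 kinesins with a RefSeq promoter window; the x axis gives the bases from the start, and gene names are coloured by role. TTTGAA lies between -55 and -10 in the 5 mitotic genes that hold it and at -140 in KIF5B.

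Old cells were compared with young cells to see how the motors differ at replicative senescence. Of the mitotic kinesins 8 fell, and of the transport kinesins, which went both ways, KIF17 rose. Of 31 members tested, 8 were called lower and 1 higher by edgeR's quasi-likelihood test (adjusted p under 0.01 and a log2 fold change over 0.6 in size), with isolate as a covariate and the isolates as the only replicates. Over all 15135 genes tested, 9.35% were called, 3.69% lower and 5.66% higher. The 8 falling genes were all mitotic, out of 11 mitotic members tested. The median log2 fold change of the mitotic members was -2.03, against -0.01 over all genes tested. In bulk RNA, fewer dividing cells and less RNA per dividing cell cannot be told apart.

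KIF20A fell most among the called members. It lies on chromosome 5 from 137514408 to 137523412 of GRCh37, and its exons share 132 bases with BRD8 and 74 with CDC23 on the other strand. In I79 its level was 117 CPM young and 11.0 CPM old, a 10.6-fold lower level. In I10 it was 114 CPM young and 25.4 CPM old, a 4.47-fold lower level. Both old values lay below both young values, and the log2 fold change was -2.76 (SE 0.32, adjusted p 0.00735 by edgeR).

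The motors that set up the bipolar spindle came next. KIF11 (chromosome 10, 94333862 to 94415152), whose tetramers push the spindle poles apart, had 66.4 CPM in I79 young, 9.77 CPM in I79 old, 77.2 CPM in I10 young and 18.1 CPM in I10 old. It fell by 2.42 in log2 terms (SE 0.19 with an edgeR adjusted p 0.00452). KIF15 (chromosome 3, 44803213 to 44914868), which can keep a spindle bipolar alongside KIF11, had 18.7 CPM in I79 young, 3.04 CPM in I79 old, 23.4 CPM in I10 young and 4.98 CPM in I10 old. It fell by 2.41 (SE 0.19, adjusted p 0.00434). The old and young columns of both genes were apart in either isolate.

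Motors that work on chromosomes and microtubule ends fell by like amounts. KIF18B, which trims astral microtubules, dropped in I79 from 20.9 CPM young to 3.26 CPM old and in I10 from 23.5 CPM to 5.91 CPM (fitted log2 change -2.31, SE 0.23, adjusted p 0.00577 by edgeR). KIF4A, a chromokinesin that limits the length of the central spindle, dropped from 37.1 CPM to 5.75 CPM in I79 and from 38.2 CPM to 11.8 CPM in I10 (-2.16, SE 0.27, adjusted p 0.00835). KIF22 had 41.6 CPM young and 8.57 CPM old in I79, and 46.1 CPM and 13.3 CPM in I10 (-2.03, SE 0.17, adjusted p 0.00478). In all of them the old columns lay well below the young ones.

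Of the cytokinesis motors, KIF23 (chromosome 15, 69706585 to 69740766) had 64.8 CPM young and 15.7 CPM old in I79, and 69.0 CPM and 27.8 CPM in I10. It fell by 1.67 (SE 0.20, adjusted p 0.0080 by edgeR). KIF20B, which acts late in the separation of daughter cells, had 37.4 CPM and 10.3 CPM in I79, 50.8 CPM and 19.5 CPM in I10, and fell by 1.61 (SE 0.17, adjusted p 0.0061). The mitotic members that missed the threshold were KIF2C, a microtubule depolymerase that corrects chromosome attachments (-2.03, adjusted p 0.0104), KIF14, a midbody motor (-1.99, adjusted p 0.0171), and KIF18A, which damps chromosome movement at the metaphase plate (-1.53, adjusted p 0.0146). All 11 mitotic members tested had fitted changes below 0, from -2.76 to -1.53.

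The isolates differed in the size of these changes. All 11 mitotic members were lower by over 0.6 in either isolate, where 19.6% of all genes tested in I79 and 18.8% in I10 were lower by as much. The median log2 ratio of old to young was -2.59 in I79 and -1.68 in I10, and 11 of 11 members had the lower ratio in I79 (10 of 11 in TPM, where KIF15 did not). Among the 559 genes called lower, 65.3% had the lower ratio in I79. KIF14 stood at -2.68 in I79 (95% counting interval -3.11 to -2.34) and at -1.36 in I10 (-1.62 to -1.13), while the intervals of KIF15 overlapped, at -2.58 (-3.06 to -2.20) and -2.21 (-2.58 to -1.91). Each isolate had 1 table per state, so the difference between isolates was not tested, and the intervals cover counting error only.

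**Figure D3:**
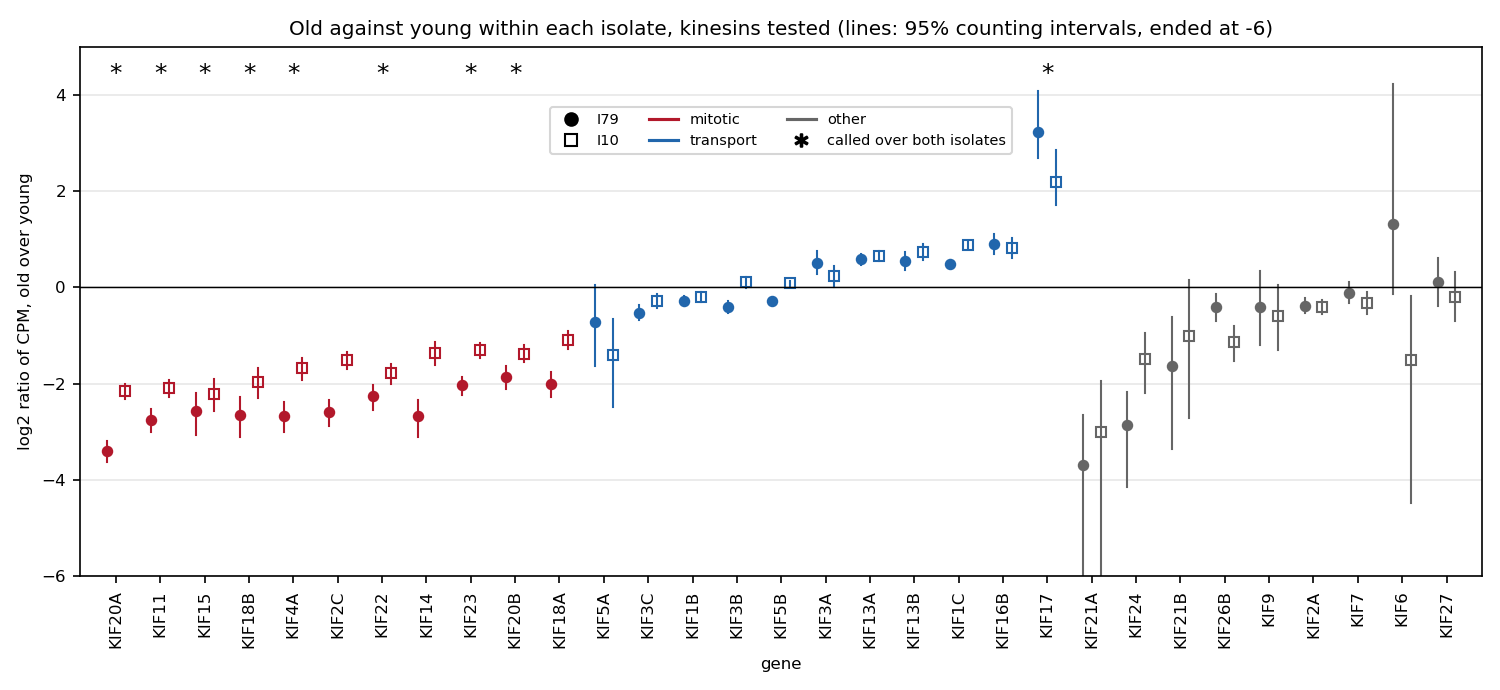
Log2 ratio of CPM in old over young cells for the 31 kinesins tested, with 95% counting intervals, in I79 (filled circles) and I10 (open squares); colours give the role and asterisks the genes called over both isolates, and intervals end at the lower edge of the plot for KIF21A. All 11 mitotic genes lie below 0 in both isolates, and KIF17 lies above 2 in both.

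KIF17 was the transport kinesin that rose in old cells. It is a motor of dendrites and cilia, on chromosome 1 from 20990507 to 21044510. In I79 it rose from 1.28 CPM young to 13.0 CPM old (20 and 240 estimated counts), and in I10 from 1.72 CPM to 8.24 CPM (33 and 149 estimated counts). The old columns lay above the young ones in both isolates, and the log2 fold change was 2.77 (SE 0.34, adjusted p 0.00805 by edgeR). Of its transcripts, KIF17-203 held 10.2 estimated counts in I79 young and 189 in I79 old, and 13.2 and 82.4 in the I10 columns, the largest share of the gene's counts in the old columns. KIF5A, a neuronal conventional kinesin near 2 CPM in young cells, had the lowest fitted change among transport members (-1.14, adjusted p 0.0957).

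Of the 11 transport members tested, 6 had changes above 0 and 5 below, with a median of 0.37. Among the motors of highest level, KIF5B had 293 CPM young and 241 CPM old in I79, and 302 CPM and 320 CPM in I10 (fitted log2 change -0.10, SE 0.14, adjusted p 0.614). KIF1C had 134 CPM and 187 CPM in I79, and 125 CPM and 232 CPM in I10 (0.68, SE 0.14, adjusted p 0.0242), above young in both isolates yet short of the threshold (adjusted p 0.00232 with DESeq2). KIF13A, which moves endosomes towards the cell surface, had 65.8 CPM and 98.8 CPM in I79, and 72.9 CPM and 115 CPM in I10 (0.62, SE 0.10, adjusted p 0.0133 by edgeR and 0.00976 with DESeq2). KIF13B (0.65, adjusted p 0.0206) and KIF16B, a motor of early endosomes (0.86, adjusted p 0.0114), also missed it.

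All 9 other members tested had fitted changes below 0, as did 7644 of all 15135 genes tested. Their median was -0.52, and none was called. The isolates went opposite ways for KIF6, with 1.33 in I79 and -1.51 in I10 (fitted -0.15, SE 0.99). They also did so for KIF27, with 0.10 in I79 and -0.19 in I10 (fitted -0.04). At an unadjusted p under 0.05, 23 of the 31 members tested passed, as did 45.3% of all genes tested. KIF2A had 47.5 CPM in both young columns, 36.5 CPM in I79 old and 35.7 CPM in I10 old (-0.40, SE 0.11, adjusted p 0.0472). KIF7 had 22.7 CPM young and 21.1 CPM old in I79, and 19.4 CPM and 15.5 CPM in I10 (-0.21, SE 0.14, adjusted p 0.296), with an I79 interval that includes 0. KIF9 had 2.11 CPM and 1.57 CPM in I79, and 2.71 CPM and 1.77 CPM in I10 (-0.52, SE 0.34, adjusted p 0.288). KIF21A, a motor that slows microtubule growth at the cell edge, was at 2.05 and 1.67 CPM in young cells and at 0.0543 and 0.111 CPM in old cells (-4.38, adjusted p 0.0109). Its old columns held 1 and 2 estimated counts, and its I79 interval runs from -10.6 to -2.66. KIF21A and KIF21B passed the filter on low counts only through their young columns, so their directions carry little weight.

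Plain library totals in place of TMM moved the median of all genes to -0.22 and the calls from 856 higher and 559 lower to 1026 higher and 2121 lower. Relative to that shift the mitotic median (-2.25) and the transport median (0.16) kept their sides, and 14 members were called lower and 1 higher.

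Estimates per transcript showed where some of the mitotic counts lay. KIF11-201 held all estimated counts of KIF11 in the 4 columns. KIF23-202 held 42.4% and 41.8% of the gene's TPM in I79 and I10 young, and 14.5% and 0.0% in the old columns. KIF23-201 held 21.2% and 18.2% in young and 28.5% and 31.2% in old cells. KIF15-201, the main coding transcript of KIF15, held 90.2% and 70.9% in young cells, 55.8% in I79 old and 0.0% in I10 old, where KIF15-204, annotated as a target of nonsense-mediated decay, held 79.6%. The I10 old share rested on 87.4 estimated counts, and how the authors' estimation split such counts between transcripts was not tested.

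Genes that work with these motors were counted from lists of 16 division and 19 transport partners. Of 16 division partners tested, 13 were called lower in old cells, with a median of -2.13. KIFC1, a minus-end motor of the kinesin superfamily, fell by 2.53 (adjusted p 0.0089 by edgeR), and TPX2, which targets AURKA and KIF15 to the spindle, fell by 2.19 (adjusted p 0.00516). FOXM1 and MYBL2, regulators of the late cell cycle genes, fell by 2.40 (adjusted p 0.0061) and 3.31 (adjusted p 0.00549). CENPE, the kinesin of the kinetochore, missed the threshold at -1.90 (adjusted p 0.0103), as did PRC1 and ECT2. Of 17 transport partners tested, 3 rose and 0 fell. These were MAPK8IP3 by 1.09, PLEKHM2 by 1.04 and TRAK1 by 0.81, adaptors that link conventional kinesin to vesicles, lysosomes and mitochondria. The light chains KLC1 and KLC2 stood at 0.34 and -0.05 and were not called.

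The knockdown libraries were used to ask which of these differences appear after HMGB2 siRNA. The labels give no control siRNA for WT, so loss of HMGB2 and the siRNA treatment itself cannot be told apart. Of 29 members tested, 2 were called and both fell, KIF3B and KIF18A. Over all 15338 genes tested, 5.2% were called, 2.34% lower and 2.86% higher. Of the 10 mitotic members tested KIF18A was the only one called, and their median log2 fold change was -0.03, against 0.00 over all genes tested. The transport median was 0.21 and the median of the 8 other members 0.02.

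KIF3B (chromosome 20, 30865454 to 30922814) is a subunit of heterotrimeric kinesin-2, which carries cargo along cilia. Its WT libraries held 101 and 107 CPM, and its HMGB2 KD libraries 52.9 and 48.6 CPM. The groups were far apart, with means of 104 ± 4.10 and 50.7 ± 3.10 CPM (SD, n = 2 libraries each). The log2 fold change was -1.03 (SE 0.13, adjusted p 0.000187 by edgeR).

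The partners of KIF3B in that complex were not called. KIF3A had WT levels of 17.8 and 18.4 CPM and knockdown levels of 16.2 and 14.8 CPM (-0.23, adjusted p 0.381), and KIFAP3, the cargo-binding subunit, had a change of 0.29 (adjusted p 0.256). KIF3C, an alternative partner of KIF3A, had WT levels of 27.7 and 30.0 CPM and knockdown levels of 38.0 and 45.8 CPM. Its groups did not overlap, but it missed the threshold (0.54, SE 0.14, adjusted p 0.0242). In old against young cells KIF3B had a change of -0.15 (adjusted p 0.49), with -0.41 in I79 and 0.11 in I10.

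KIF18A (chromosome 11, 28042166 to 28129703) had 16.6 and 19.1 CPM as its WT levels, 10.1 and 8.50 CPM as its knockdown levels, and means of 17.9 ± 1.77 and 9.32 ± 1.15 CPM (SD, n = 2). The groups did not overlap, and its fitted log2 change was -0.94 (SE 0.16, adjusted p 0.00214 by edgeR). Its call was lost without WT replicate 2 (log2 change -0.84, adjusted p 0.0112) and without HMGB2 KD replicate 2 (-0.81, adjusted p 0.0201). KIF18B, its closest relative, had WT levels of 5.26 and 4.55 CPM and knockdown levels of 3.96 and 5.99 CPM, with overlapping groups (0.02, SE 0.25, adjusted p 0.974).

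The mitotic motors that fell in old cells were not called here. KIF20A had WT levels of 19.3 and 21.6 CPM and knockdown levels of 16.8 and 21.2 CPM (-0.11, SE 0.15, adjusted p 0.741). KIF11 had WT levels of 13.1 and 17.0 CPM against 15.1 and 16.6 CPM (0.07, SE 0.16, adjusted p 0.858). KIF23 had WT levels of 23.1 and 28.3 CPM against 28.0 and 24.7 CPM (0.03, SE 0.15, adjusted p 0.928). The groups of all 3 genes overlapped. KIF4A, KIF20B and KIF22 had changes of -0.09, 0.12 and -0.10, with standard errors between 0.14 and 0.19. KIF15 could not be tested, as it had 1 count in WT replicate 1 and none in the other 3 libraries. KIFC1 was also near 0 there, at 0 to 0.226 CPM, where young cells had 41.2 and 43.2 CPM, and the part of the counting in these low values was not tested. Of 15 division partners tested 0 were called, and MKI67, a marker of dividing cells, had WT levels of 32.1 and 37.8 CPM and knockdown levels of 31.0 and 39.1 CPM. In I79 and I10, MKI67 had 194 and 228 CPM in young cells and 21.8 and 54.1 CPM in old cells. HMGB2 itself had 122 and 141 CPM in young and 38.2 and 46.3 CPM in old cells, against 27.1 and 27.3 CPM in WT. Those tables were counted in another way, and whether the WT cells divided less than young cells was not tested.

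KIF3B was the only transport motor called. Of 11 tested, 7 had changes above 0 and 4 below, and in 9 the knockdown libraries lay wholly above (6) or below (3) the WT ones, a pattern seen in 53.8% of all genes tested. KIF17 had WT levels of 4.88 and 4.77 CPM and knockdown levels of 6.61 and 9.78 CPM (0.77, SE 0.23, adjusted p 0.0452 by edgeR), and its value depended on the library left out. Without HMGB2 KD replicate 1 it was called (1.01, adjusted p 0.00943), without HMGB2 KD replicate 2 the change was 0.46 (adjusted p 0.295), and without WT replicate 1 or 2 it was 0.78 (adjusted p 0.132) or 0.74 (adjusted p 0.13). KIF13A had WT levels of 73.3 and 89.5 CPM against 111 and 107 CPM (0.42, SE 0.13, adjusted p 0.0634). KIF1C had 232 and 232 CPM against 245 and 293 CPM (0.21, SE 0.14, adjusted p 0.403). KIF5B had 263 and 288 CPM against 271 and 263 CPM (-0.05, SE 0.13, adjusted p 0.882).

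Among other members, KIF2A, KIF7 and KIF9 had changes of 0.04, 0.00 and 0.04, with overlapping groups. KIF21B, a slow motor that holds microtubule ends, had the highest change of any member (1.21, SE 0.38, adjusted p 0.0566), with WT levels of 1.08 and 0.83 CPM and knockdown levels of 2.24 and 2.18 CPM. At an unadjusted p under 0.05, 8 of the 29 members passed, as did 23.9% of all genes tested. Of 18 transport partners tested, 0 were called, and of the division and transport partners together none had a change beyond 0.51 in size.

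**Figure D4:**
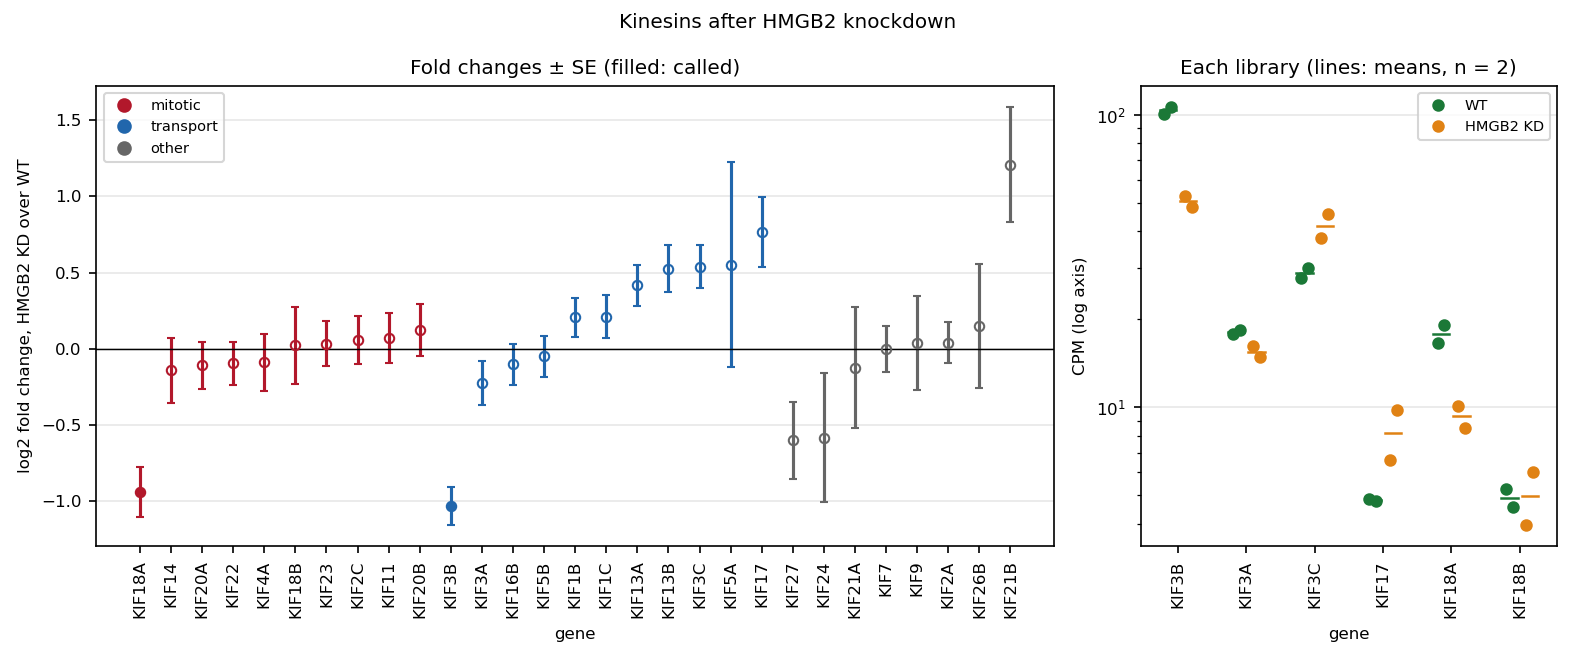
Left, log2 fold change of HMGB2 KD over WT with its SE for the 29 kinesins tested, coloured by role, filled where called; right, CPM on a log axis in each library for kinesin-2 genes and the KIF18 pair, with bars at the means of 2 libraries. KIF3B and KIF18A are the only filled points, at -1.03 and -0.94.

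Cells given ICM were set against I79 young cells on CPM over genes listed in every kind of table. The tables were counted in different ways, so no test was run. The same ratio was taken for the WT libraries, whose labels name no treatment, as a background. It may hold differences between the cells as well as between the tables, which cannot be told apart. With TMM scaling, CDKN1A had 1163 and 1196 CPM in WT. In I79 and I10 it had 354 and 341 CPM young, and 2350 and 1607 CPM old. LMNB1 had 21.0 and 19.4 CPM in WT, against 73.9 and 84.1 CPM young and 8.30 and 14.0 CPM old. The ICM and WT ratios share I79 young as the control. Of 14707 genes compared, 60.8% were past 0.6 in ICM (29.9% lower and 30.8% higher) and 44.4% in WT (22.9% lower and 21.5% higher). All 11 mitotic members compared were lower by over 0.6 in ICM, with a median log2 ratio of -4.67, against 0.00 over all genes compared. They were also lower in WT, with a median of -2.04, and in I79 old, with a median of -2.76. In I79 old 42.8% of genes were past 0.6, 25.9% lower and 16.8% higher, and the median of all genes was -0.15.

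Few reads of some mitotic motors were found in ICM cells. KIF20A had 4 and 4 reads in the ICM libraries, or 0.311 and 0.376 CPM, where I79 young had 133 CPM, I79 old 11.1 CPM and WT 21.0 and 23.4 CPM. The pooled log2 ratio to I79 young was -8.61 (95% counting interval -9.82 to -7.63). KIF2C had 4 and 5 reads (pooled ratio -7.11, interval -8.24 to -6.18). KIF4A had 0.5 and 1.5 estimated reads, with 0.5 and 0.5 more given to its copy KIF4B, and a pooled ratio of -8.96 (interval -12.0 to -7.10).

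Other mitotic motors kept more reads. KIF23 had 123 and 101 reads, or 9.55 and 9.50 CPM, against 74.0 CPM in I79 young, 16.0 CPM in I79 old and 25.1 and 30.6 CPM in WT (log2 ratio -2.94 in ICM and -1.41 in WT). KIF22 stood at 7.15 and 5.08 CPM (-2.96 in ICM and -1.34 in WT), KIF11 at 5.35 and 5.02 CPM (-3.84 and -2.22), KIF20B at 2.49 and 2.26 CPM (-4.11 and -1.96) and KIF18A at 3.34 and 3.86 CPM (-3.41 and -1.02). Each of these lay below I79 old as well as below WT. KIF18B had 10.7 and 9 reads (-4.67 and -2.15), and 100% of them were placed in the 3′ untranslated region. With coding ICM reads only it had none left, so its ratio of -6.86 was a floor set by the prior count. In this and later ratios with coding reads only, I79 young kept its counts over whole transcripts. KIF15 had 13 and 5 reads (-4.75), above the WT libraries, which listed it at 0.0317 and 0 CPM, and the part of the counting in that low value was not tested.

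Transport members went both ways, with a median ratio of 0.18 in ICM and 0.06 in WT. Of 12 compared, 4 were higher by over 0.6 and 3 lower. KIF5C, among the 3 lower, reached the 10 counts needed only through I79 young, with 12 estimated counts. It had 1 and 2 reads in ICM and 9 and 9 counts in WT, so its direction carries no weight. KIF17 stood at 5.67 and 5.93 CPM in ICM against 1.46 CPM in I79 young (ratio 1.92, and 1.77 in WT and 3.09 in I79 old). KIF1C stood at 363 and 352 CPM against 153 CPM (1.23, and 0.72 in WT). KIF3B stood at 123 and 123 CPM against 73.2 CPM (0.75, and 0.62 in WT). Of its ICM reads, 60.1% and 61.5% were placed in the 3′ untranslated region. With coding ICM reads only the ratio was -0.04, but I79 young kept whole-transcript counts, so this ratio is not like for like. KIF5B and KIF13A stood at -0.42 and 0.14, within 0.6 of I79 young, as they did in WT (-0.16 and 0.23).

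Among other members KIF24, which takes microtubules apart to hold back cilium growth, was higher in ICM and lower in the remaining groups. It had 310 and 269 reads in ICM, or 24.1 and 25.3 CPM, against 5.77 CPM in I79 young, 0.606 CPM in I79 old and 2.79 and 1.80 CPM in WT. The ratio to I79 young was 2.08 in ICM, -3.05 in I79 old and -1.32 in WT. In ICM 60.3% and 62.8% of its reads lay in the 3′ untranslated region. With coding ICM reads only, again over whole-transcript counts in I79 young, the ratio was 0.85. Its exons share 184 bases with SERPINH1P1, a processed pseudogene of a collagen chaperone, and 144 with UBAP1, on the other strand, and their part in the counts was not tested. KIF26B, a member that lacks motor activity, stood at 2.41 and 3.67 CPM against 17.4 CPM (ratio -2.51, and -3.05 in WT), and KIF2A, KIF7 and KIF9 had ratios of -0.56, -0.23 and 0.66 in ICM.

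All 16 division partners were lower by over 0.6 in ICM, with a median of -5.41, and in WT, with a median of -2.12. The transport partners had medians of 0.06 in ICM and 0.21 in WT. Fewer dividing cells, the treatment and the counting cannot be told apart in the ICM ratios.

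**Figure D5:**
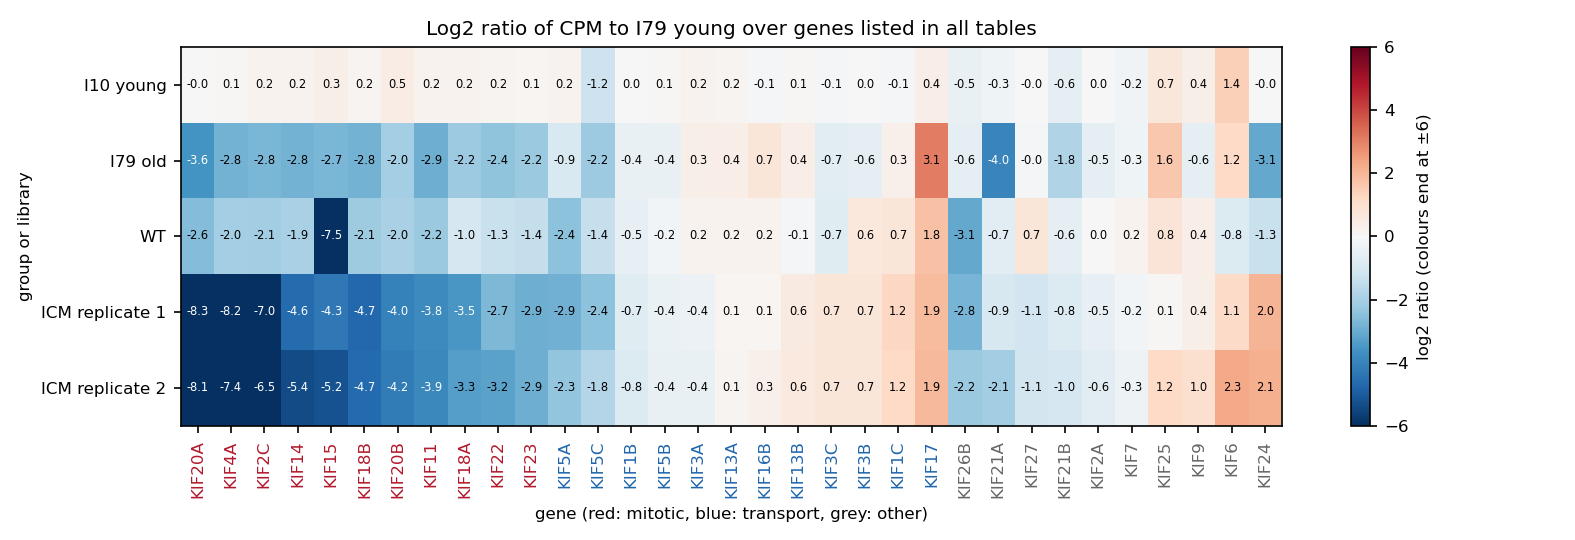
Log2 ratio of CPM to I79 young for the 33 kinesins compared, with the value in each cell, for I10 young, I79 old, the mean of WT and each ICM library; gene names are coloured by role, and colours end at 6 in either direction. The mitotic genes are below 0 in I79 old, WT and ICM and lowest in ICM except for KIF15, which is lowest in WT, where 1 library held 1 count and the other 0; KIF24 is above 0 in ICM and below 0 in I79 old and WT.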

How the data were processed

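Raw gene counts were deposited for each WT and HMGB2 KD library. The submitters' processing notes name STAR 2.6.0c, GRCh37, featureCounts, DESeq2 and deepTools. Use of strand in counting is not given in the sources used here. Summary rows took 16.9% to 18.0% of each table and were left out. For old and young cells the authors deposited estimated counts, TPM and lengths per transcript, which were summed per gene by GENCODE annotation lifted to GRCh37 (97.7% of transcripts matched) and rounded. For ICM the authors deposited estimated counts per gene and transcript region.

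Genes were tested with edgeR 4.0.16 (R 4.3.3): quasi-likelihood test, TMM scaling, filterByExpr and Benjamini-Hochberg adjustment over all genes tested. Calls needed an adjusted p under 0.01 with a log2 fold change beyond 0.6 in size. A standard error is the fold change over the square root of F. The old against young fit leaves 1 residual degree of freedom. The labels do not say whether libraries of a group came from separate cultures, and the study's methods describe independently grown replicas only for ribosome profiling and its matched RNA-seq, so p-values may measure technical spread between these samples. ICM ratios used a prior count of 2 and genes with 10 counts in a group. Intervals are exact Clopper-Pearson, for counting error only, as there are no molecular identifiers. No 2 replicates were duplicates (chi-square per degree of freedom 27.1, 41.4 and 2.23 for WT, HMGB2 KD and ICM).

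On simulated counts with 200 genes changed by 1.5 (log2), the knockdown fit recovered 73.5% with 4 false calls among 15000 genes. The old against young fit recovered 69.5% with 0 among 14781. These counts were drawn with no isolate effect and a dispersion trend shared by all libraries. The rates belong to that setting and may differ in the real data.

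Full values are given for members called in either test and for the 3 of highest TPM per role in young cells. The remaining members are named where they go against their group, are at 0 in a whole table, or, chosen after their values were seen, where they complete a complex or missed a threshold. Members, roles and lists were chosen with earlier results of these data known. Alternatives were other scalings, filters, tools, thresholds, covariates, reads used, controls and left-out replicates.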

Additional observations from a re-analysis of the deposited data

Results flagged for a closer look

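KIF5B had ratios of opposite sign in the isolates with TMM scaling. Its log2 ratio of old to young was -0.28 in I79 (95% counting interval -0.34 to -0.22) and 0.08 in I10 (0.03 to 0.14), so that I79 minus I10 was -0.36. Each isolate had 1 table per state, and the difference between isolates was not tested. With plain library totals, a scaling added after seeing the data, the ratio was -0.45 in I79 and -0.18 in I10, and in TPM it was -0.42 and -0.14, so that the opposite signs depend on the scaling.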

How the results depend on the processing

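Old against young, 9 members were called, 18 at an adjusted p under 0.05, 15 with plain library totals, 19 with no filter on low counts (4250 genes called in all, of 29077), 14 with DESeq2 (2159 genes) and 8 with no isolate covariate. Plain totals gave a transport median of 0.16. KIF18A was called with plain totals, no filter and DESeq2, KIF1C and KIF13A with no filter and DESeq2, and KIF2A with plain totals, while KIF4A, KIF20B and KIF23 lost their calls without the isolate covariate (adjusted p 0.0111, 0.0227 and 0.0125). The mitotic median stayed between -2.59 and -1.68 in all alternatives, isolates apart included.

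After HMGB2 knockdown 2 members were called, and between 1 and 4 with a library left out. In all, 797 genes were called, 548 or 833 without WT replicate 1 or 2, and 999 or 312 without knockdown replicate 1 or 2. KIF3B was called in each of these. WT and HMGB2 KD share replicate numbers only. The deviations of replicates 1 and 2 correlated at 0.12 across genes, and with the replicate number as a block 1243 genes and 3 members were called, KIF17 newly (0.74, adjusted p 0.00386). Uncalled members near 0 changed sign. With plain totals KIF2A stood at -0.023, KIF9 at -0.025, KIF18B at -0.044 and KIF23 at -0.030, and with 1 RUVs factor KIF18B stood at -0.089. With a library left out, the log2 fold change ranged from -0.087 to 0.154 for KIF2A, from -0.287 to 0.078 for KIF4A, from -0.113 to 0.013 for KIF5B, from -0.191 to 0.158 for KIF7, from -0.295 to 0.308 for KIF9, from -0.107 to 0.265 for KIF11, from -0.304 to 0.280 for KIF18B, from -0.280 to 0.038 for KIF20A and from -0.104 to 0.182 for KIF23. The causes were not tested.

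The mitotic ICM median was -4.17 with coding and noncoding ICM reads only, over whole-transcript counts in I79 young, which moved the median of all genes to -0.12. It was -2.40 against WT, and -4.66 to -4.27 with a library left out. The transport median against WT was -0.044. TMM scaling, added after seeing the data, gave -4.66 and 0.20. No compared member was at 0 in a whole group. KIF24, KIF2C and KIF20A in ICM are limited by region or by few reads.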
